A study of Mus musculus with 7 samples.

Results

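The 7 genes described here are Ttn, Neb, Syne1, Syne2, Macf1, Dst and Utrn, rows of the deposited count table taken by symbol out of 25571 rows. They encode some of the longest structural proteins of the mouse. Ttn was chosen by its log2 fold change between the groups, as a gene with a lower count level after drug treatment in these same libraries, and the other 6 were set beside it to ask whether that fall is shared by other very long genes. The differences of the 7 between the groups are therefore given as a description, and none of them supports the choice. All 7 passed the filter on low counts, which 15822 genes passed in all.

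The RNA came from CD11b+ tumor-associated macrophages sorted from T387 glioblastoma grown orthotopically in the brains of NSG mice, which lack T, B and natural killer lymphocytes. Both groups carried the human tumour and followed 1 schedule by mouth, 4 times a week for 3 weeks from day 7 after implantation. The DMSO group (3 libraries) received the solvent mixture of DMSO, PEG300, Tween-80 and PBS, and the Pracinostat group (4 libraries) received the histone deacetylase inhibitor Pracinostat at 30 mg/kg in the same mixture. The labels call the libraries biological replicates and name no animals, ages or pools, so the spread given below is the spread between these libraries. T387 is a single tumour model, and reads were counted on mouse genes.

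Depth was 10142753 to 16950597 counts, and 16319 to 19244 genes were detected per library. Itgam, which encodes the sorted CD11b antigen, stood at 1318 to 2579.5 CPM (counts scaled to a common library size, after TMM) over the 7 libraries, and Ptprc (CD45) at 471.7 to 732.8 CPM. By edgeR's quasi-likelihood test, 0 of the 15822 genes had an adjusted p under 0.05, and 661 (4.18%) had an unadjusted p under 0.05, with 217 (1.37%) lower and 444 (2.81%) higher with Pracinostat. DESeq2 called 27 genes (0.171%) and limma-voom called 0.

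Titin, encoded by Ttn, spans the sarcomere of striated muscle from the Z-disc to the M-band and acts as its molecular spring, and nebulin, encoded by Neb, runs along the thin filament of skeletal muscle. The nesprins encoded by Syne1 and Syne2 sit in the nuclear envelope, where they join SUN proteins to form the LINC complex that ties the nucleus to the cytoskeleton. Macf1 and Dst encode spectraplakins, which link actin filaments to microtubules, and Utrn encodes utrophin, the widely expressed relative of dystrophin. All are assembled from long runs of repeated domains, and several are also made as much shorter isoforms.

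By the longest coding sequence in the GENCODE M21 annotation, Ttn has 35213 residues in 346 coding exons and is the longest gene tested. Syne1 has 8799 residues, Dst 7717, Macf1 7355, Neb 7152, Syne2 6874 and Utrn 3430. The median over the 12374 protein-coding genes tested with a coding length was 474 residues. Levels of different genes can be set side by side only per length, so they are given here per kilobase of that coding sequence. Because counts are summed over isoforms, this scale understates a gene whose short isoforms dominate.

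On this scale Macf1 was the highest, at 96.1 to 143.5 CPM per coding kilobase over the 7 libraries. Dst came next at 46.1 to 107.8, and its highest library overlapped the range of Macf1. Utrn was lower, at 9.83 to 22.4, with no overlap with either spectraplakin. The nesprins followed, Syne1 at 1.60 to 7.45 and Syne2 at 3.26 to 4.77, and their ranges overlapped. Ttn, at 0.00549 to 0.223, and Neb, at 0 to 0.207, were far below and overlapped each other. In counts, Ttn had 1.20 to 2.79 per coding kilobase in the DMSO libraries and 0.0568 to 0.417 in the Pracinostat libraries, against 1191 to 2170 for Macf1 over the Pracinostat libraries. The 127 to 295 Ttn counts of a DMSO library cannot be placed along its 105.6 coding kilobases, because the table sums them to 1 value per gene. In bulk samples, fewer cells of a type and less RNA per cell cannot be told apart.

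**Figure D1:**
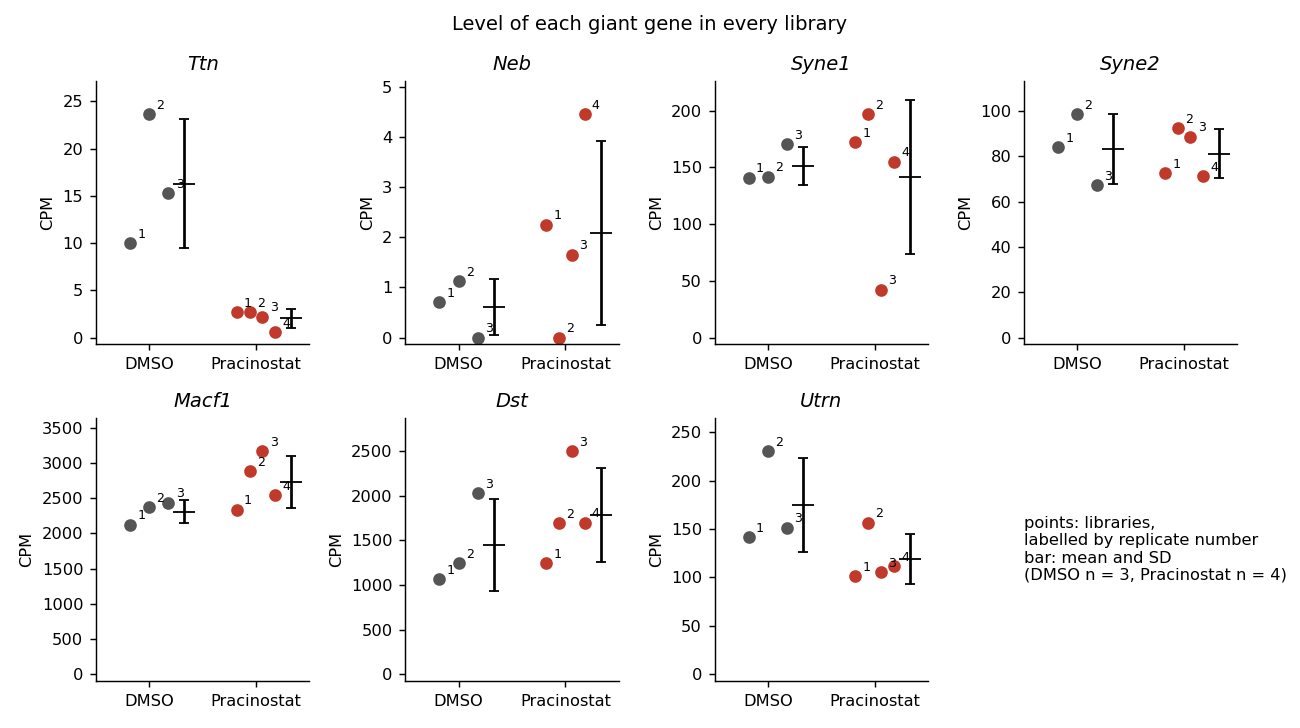
Level of each gene, in CPM, in the 3 DMSO libraries (grey) and the 4 Pracinostat libraries (red), each point being 1 library labelled with its replicate number and each bar the mean with its SD. Ttn stands between 9.98 and 23.6 with DMSO and between 0.580 and 2.68 with Pracinostat, while the ranges of the other 6 genes overlap.

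Ttn was at 9.98, 23.6 and 15.3 CPM in DMSO replicates 1 to 3, from 127, 295 and 237 counts. It was at 2.66, 2.68, 2.18 and 0.580 CPM in Pracinostat replicates 1 to 4, from 39, 44, 33 and 6 counts. All 4 Pracinostat libraries lay below every DMSO library, and the lowest DMSO library was 3.73 times the highest Pracinostat library. The means were 16.3 ± 6.87 CPM (SD, n = 3) in the DMSO group, against 2.02 ± 0.990 CPM (SD, n = 4) in the Pracinostat group, a log2 fold change of -2.99 ± 0.55 (standard error). Over all genes tested, 32 (0.202%) had a log2 fold change this low or lower. This is the value Ttn was chosen for, and nothing is read from its place in that order.

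The value of Pracinostat replicate 4 rests on 6 counts, and its exact Poisson interval, which covers counting error only, ran from 0.213 to 1.26 CPM. Leaving out 1 library at a time moved the log2 fold change of Ttn between -3.24 and -2.63, the smallest difference being the one without DMSO replicate 2, where Ttn was highest.

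Neb did not share the pattern. It was at 0.708, 1.12 and 0 CPM with DMSO and at 2.25, 0, 1.65 and 4.45 CPM in Pracinostat replicates 1 to 4. In the libraries at 0, DMSO replicate 3 and Pracinostat replicate 2, a count of 0 allows up to 0.193 and 0.182 CPM (3 counts). The groups overlapped, the highest values were in Pracinostat libraries, and the log2 fold change was 1.76 ± 1.74. It ran from 1.06 without Pracinostat replicate 4, the library with the most Neb, to 2.54 without DMSO replicate 2. With at most 46 counts in a library, Neb was the most weakly measured of the 7.

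Syne1, the gene for nesprin-1, was at 140.9, 141.7 and 170.5 CPM with DMSO and at 172.2, 196.6, 42.3 and 154.9 CPM with Pracinostat. Pracinostat replicate 3 stood apart, with 640 counts where its 3 companions had 1602 to 3229, and the groups overlapped. The log2 fold change was -0.09 ± 0.46 with all libraries and 0.21 ± 0.17 without Pracinostat replicate 3. Syne2, the gene for nesprin-2, was at 84.0, 98.4 and 67.3 CPM with DMSO and at 72.4, 92.4, 88.5 and 71.3 CPM with Pracinostat. It showed no such low library, its groups overlapped, and its log2 fold change was -0.04 ± 0.19. Thus the library that was low in Syne1 was the second highest of the Pracinostat libraries for Syne2.

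Macf1, the most abundant of the 7 per kilobase, was at 2120.0, 2369 and 2434 CPM with DMSO and at 2336, 2880.0, 3166 and 2540.4 CPM with Pracinostat. Pracinostat replicate 1 lay inside the DMSO range and the other Pracinostat libraries above it, for a log2 fold change of 0.24 ± 0.15. Dst was at 1066, 1242 and 2027 CPM with DMSO and at 1244, 1692, 2497 and 1696 CPM with Pracinostat, with overlapping groups and a log2 fold change of 0.30 ± 0.26. Pracinostat replicate 3 was the highest library for both spectraplakins and DMSO replicate 1 the lowest. Without DMSO replicate 3, the highest DMSO library for Dst, its log2 fold change was 0.63 ± 0.24, and without Pracinostat replicate 3 it was 0.10 ± 0.23. The strand setting of the counting is not given in the sources used here, and 5 of 24 annotated genes that overlap the 7 have rows in the table. Of these, 4 overlap Dst, and none exceeded 181 counts in a library, against 13563 or more for Dst.

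Utrn had the lowest log2 fold change of the other 6. It was at 141.7, 230.3 and 151.4 CPM with DMSO and at 101.2, 156.6, 105.1 and 111.8 CPM with Pracinostat. Pracinostat replicates 1, 3 and 4 lay below every DMSO library and Pracinostat replicate 2 lay inside the DMSO range. The log2 fold change was -0.56 ± 0.21, which is 1.47-fold lower, and it was -0.31 ± 0.20 without DMSO replicate 2. Utrn did not pass edgeR's test over all genes.

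Of the 7 genes, 1 (Ttn) had groups that did not overlap with Pracinostat lower, against 2.59% of all genes tested, and 0 had them with Pracinostat higher, against 3.51%. By edgeR's adjusted p 0 of 7 passed, against 0% of all genes. Of the 6 others, 3 had log2 fold changes below 0 and 3 above, with a median of 0.10, against 47.7% below 0 and a median of 0.02 over all genes tested. None of the 6 was at -1 or lower, against 5.69% of all genes. The fall seen in Ttn was thus not seen at a like size in any other of the 7.

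The question was then put to every other gene with a coding sequence of at least 3000 residues. The annotation holds 146 such genes beside the 7, of which 125 have a row in the table and 98 passed the filter. Of the 98, 33 (33.67%) had a log2 fold change below 0 and 65 above, with a median of 0.10. Over all genes tested 47.7% were below 0, with a median of 0.02, and the median was 0.01 over those with a coding length. At -1 or lower there were 5 (5.1%), against 5.69% of all genes tested, which include genes without a coding length. Of the 12374 genes with a coding length, 552 were at -1 or lower. By class this was 4.67% under 500 residues, 4.04% from 500 to under 1000, 4.19% from 1000 to under 2000 and 6.8% from 2000 to under 3000. Of the 98, 2 had non-overlapping groups with Pracinostat lower (2.04%), against 2.59% of all genes tested. Another 5 had them with Pracinostat higher (5.1%), against 3.51%. By edgeR's adjusted p 0 passed. At its unadjusted p under 0.05 there were 1 lower (1.02%) and 6 higher (6.12%), against 1.37% and 2.81% of all genes tested. DESeq2 called 1 of the 98, Fat3, which rose, against 0.171% of all genes tested. Without a low-count filter edgeR called 2 of 125, Fat3 and Apob, against 0.246% of all 25571 genes. Without DMSO replicate 1, 50 of 105 tested were below 0, and without DMSO replicate 2, 26 of 103 were.

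The 2 that were lower with non-overlapping groups were Apob and Hmcn1. Apob, the apolipoprotein of low-density lipoprotein, was at -0.95 ± 0.26, and Hmcn1, which encodes the extracellular matrix protein hemicentin-1, at -1.58 ± 0.74. Apob was at 65.3, 103 and 63.0 CPM with DMSO and at 28.5, 32.5, 55.6 and 43.1 CPM with Pracinostat. Hmcn1 was at 12.8, 21.4 and 14.1 CPM with DMSO and at 6.95, 12.1, 0.926 and 1.45 CPM with Pracinostat, so that replicates 3 and 4 were low and replicate 2 was close to the DMSO libraries. Among long genes whose mean log2 CPM was 2 or more, the third lowest was Fat4, an atypical cadherin (-0.95 ± 0.68), with overlapping groups. None of the 3 was as low as Ttn, although Lama2, the laminin alpha-2 chain, was at -2.14 ± 1.90 from a low level. Lama2 had 14, 322 and 0 counts in DMSO replicates 1 to 3 and 52, 0, 44 and 17 in Pracinostat replicates 1 to 4. At the other end were Fat3, also an atypical cadherin (1.27 ± 0.28), Dnhd1 (1.24 ± 0.75) and Cdh23, the cadherin of hair-cell tip links (0.87 ± 0.70). Fat3 was at 28.5, 40.2 and 28.4 CPM with DMSO and at 66.5, 71.1, 122.1 and 51.8 CPM with Pracinostat, the groups not overlapping.

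**Figure D2:**
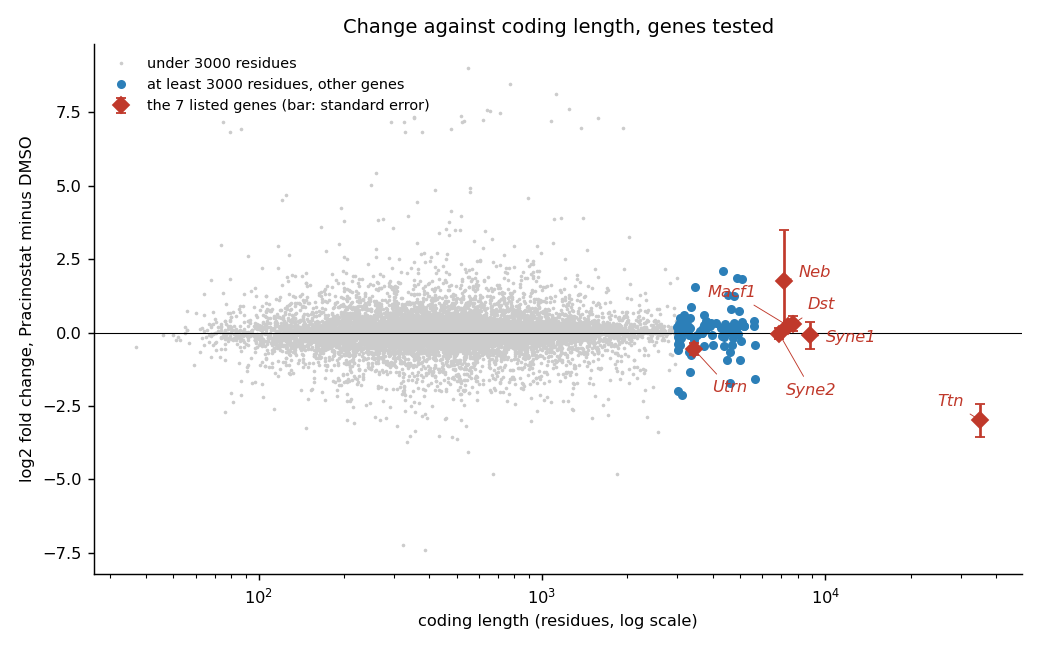
Log2 fold change, Pracinostat minus DMSO, against coding length in residues on a log axis for the genes tested, with genes under 3000 residues in grey, other genes of at least 3000 residues in blue and the 7 listed genes in red with their standard error. Ttn lies alone at the right at -2.99, while the other 6 lie between -0.56 and 1.76.

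Across length classes the median log2 fold change ran from -0.01 in 6580 genes under 500 residues through 0.03 (500 to under 1000), 0.04 (1000 to under 2000) and 0.05 (2000 to under 3000) to 0.10 in the 98 longest. Across the 12374 genes, which are not independent replicates, Spearman's rho of the log2 fold change with coding length was 0.05. Both classes above 2000 residues, with the 7 genes left out, thus had medians above 0.

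The same classes varied between libraries within each group. In the genes of at least 3000 residues, the median deviation from each gene's own mean was -0.20, 0.15 and -0.08 on the log2 CPM scale in DMSO replicates 1 to 3. It was -0.02, 0.09, 0.19 and 0.02 in Pracinostat replicates 1 to 4. Genes under 500 residues were at 0.14, -0.09 and 0.05 with DMSO and at 0.13, 0.00, 0.00 and 0.00 with Pracinostat, so that DMSO replicate 1 was high in short and low in long genes and DMSO replicate 2 the reverse. Within the DMSO group Ttn had the same order as the long genes, lowest in replicate 1 and highest in replicate 2. In the Pracinostat group it did not, since Ttn was at 2.18 CPM in replicate 3, where the long genes were highest. The part of this length trend in the level of Ttn was not tested.

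**Figure D3:**
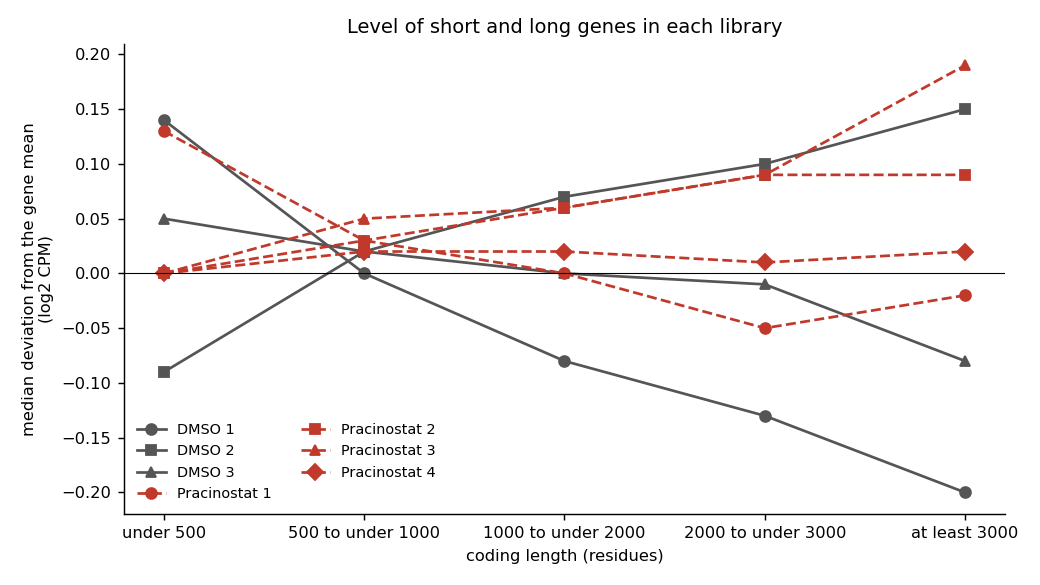
Median deviation of log2 CPM from each gene's mean over the 7 libraries, by class of coding length in residues, with 1 line per library (grey solid for DMSO, red dashed for Pracinostat). The longest class runs from -0.20 in DMSO replicate 1 to 0.19 in Pracinostat replicate 3, and the groups overlap there.

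Because Ttn and Neb are best known from muscle, markers of striated muscle were read in every library. Of 30 markers 22 have a row and 8 passed the filter, and none of the 22 was at 0 in every library. Their summed level was 16.4 to 46.5 CPM with DMSO and 15.4 to 26.2 CPM with Pracinostat. The highest sum was in DMSO replicate 2, which also had the most Ttn and carried transcripts of the fast skeletal myosins Myh1 (4.08 CPM), Myh2 (4.32 CPM) and Myh4 (3.20 CPM). In DMSO replicates 1 and 3, with Ttn at 9.98 and 15.3 CPM, Myh1, Myh2 and Ckm, the muscle creatine kinase, were at 0 and Myh4 was at 0.0786 and 0.0644 CPM. Other markers were present there: the fast troponin gene Tnni2 was at 6.45 and 6.64 CPM, the skeletal actin gene Acta1 at 0.786 and 1.48 CPM, Mybpc3 at 0.550 and 6.06 CPM and Des, desmin, at 3.77 and 0.387 CPM. In the Pracinostat group Myh1 was at 0 in replicates 1 and 4 and at 1.77 and 1.98 CPM in replicates 2 and 3. Of the 8 markers tested 6 had negative log2 fold changes and 2 positive, with a median of -0.17. They ran from -1.66 ± 1.94 (Acta1) to 1.93, all groups overlapping. The difference in Ttn was -2.63 without DMSO replicate 2. B lymphocyte markers, of which 1 of 5 was tested, summed to 5.11 to 9.08 CPM with DMSO and 4.36 to 5.42 CPM with Pracinostat, and the tested one, Cd79b, had groups that did not overlap (-0.80 ± 0.50). The parts of muscle and B lymphocyte transcripts in the level of Ttn were not tested.

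Of the remaining cell types, fibroblasts and endothelium had the lowest median log2 fold changes of their markers. Medians were also below 0 for neurons (-0.08), oligodendrocytes (-0.14) and astrocytes (-0.04). They were above 0 for macrophages and microglia (0.04), smooth muscle and pericytes (0.32) and neutrophils (0.59). Of 6 fibroblast markers tested 5 were below 0, with a median of -0.98, and 2 were at -1 or lower. Their sum was 3824 to 5910 CPM with DMSO and 2959 to 9848 CPM with Pracinostat, most of it from Fn1, which macrophages also make. The fibrillar collagens were high in 1 library of each group. Col1a1 was at 702 CPM in DMSO replicate 2 and 439.9 CPM in Pracinostat replicate 1, and at 11.7 to 32.2 CPM in the other 5 libraries. Without these 2 collagen-rich libraries, the log2 fold change of Ttn was -2.77. Of 8 endothelial markers 6 were below 0, with a median of -0.39, and 2 were at -1 or lower. Their sum was 259.4 to 325.7 CPM with DMSO and 95.2 to 407.5 CPM with Pracinostat. Pracinostat replicate 4, the library with the least Ttn, was the lowest in both sums, at 2959 and 95.2 CPM. All groups of these markers overlapped, and without this library Ttn was at -2.71. The part of these cell types in the level of Ttn was not tested.

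Of 26 listed partners and relatives of titin and nebulin 10 passed the filter, of which 7 had log2 fold changes above 0 and 3 below, with a median of 0.28, and 0 passed edgeR's adjusted p. Capn3, a calpain protease that binds titin in muscle, was at 36.6, 51.1 and 56.0 CPM with DMSO and at 64.1, 82.4, 127.8 and 76.0 CPM with Pracinostat. Its groups did not overlap and its log2 fold change was 0.87 ± 0.25. Nrap, a nebulin-related anchoring protein, was at 0.71 ± 0.35 with overlapping groups, and Lasp1, a small and widely expressed nebulin-family protein, was at 0.00 ± 0.15. The lowest were Xirp1, a gene of an actin-binding muscle protein (-0.80 ± 1.67), and Palld, which encodes the actin-associated protein palladin (-0.73 ± 0.36), both with overlapping groups. Palld was at 39.8, 41.8 and 83.0 CPM with DMSO and at 36.1, 50.6, 16.7 and 29.2 CPM with Pracinostat.

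The partners of the nesprins lay close to 0. Of 18 genes of the LINC complex and nuclear lamina tested, 11 were above 0 and 7 below, with a median of 0.09 and a range of -0.27 to 0.58. Sun2, which anchors nesprins in the nuclear envelope, was at 201.4 ± 48.5 CPM (SD, n = 3) in the DMSO group, against 246.8 ± 23.3 CPM (SD, n = 4) in the Pracinostat group (0.29 ± 0.18). Lmnb1, lamin B1, was at 0.33 ± 0.18, and the torsin cofactors Tor1aip1 and Tor1aip2 at -0.14 ± 0.15 and 0.58 ± 0.20. Tor1aip2 was the 1 gene of these 18 whose groups did not overlap, with Pracinostat higher. Over all genes tested, 3.51% had such groups with Pracinostat higher and 2.59% with Pracinostat lower. The genes named as not overlapping in the other lists and among the markers stand beside the same shares, and nothing is read from them.

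Among plakins and other linkers of the cytoskeleton, 9 of 18 genes tested were above 0 and 9 below, with a median of 0.00 that became -0.01 with RLE scaling and -0.02 on library totals. Plec, the gene for plectin and a relative of Macf1 and Dst, was at 1012, 1328 and 1696 CPM with DMSO and at 1200.5, 1298, 530.5 and 969.0 CPM with Pracinostat (-0.43 ± 0.29). Pracinostat replicate 3, highest in Macf1 and Dst, was thus lowest in Plec. Tln1, which couples integrins to actin, was at -0.03 ± 0.14. Vcl, its partner vinculin, was at 82.2 ± 1.20 CPM (SD, n = 3) in the DMSO group, against 63.5 ± 12.6 CPM (SD, n = 4) in the Pracinostat group, the groups not overlapping (-0.37 ± 0.19).

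Utrophin's complex gave 7 genes above 0 and 8 below of 15 tested, with a median of -0.02. Dmd, the dystrophin gene, was at 0.387 to 1.92 CPM with DMSO and 0 to 3.00 CPM with Pracinostat, far below Utrn. Dmd passed the filter, but its log2 fold change of -0.03 ± 1.55 was imprecise. Dag1, dystroglycan, was at 0.18 ± 0.20 and the syntrophin Sntb2 at -0.09 ± 0.20. Pomt2, an enzyme that glycosylates dystroglycan, was at 1.08 ± 0.43 with overlapping groups, and Sgcb, beta-sarcoglycan, at 0.61 ± 0.31 with groups that did not overlap. Among 9 spectrins and alpha-actinins tested, 5 were above 0 and 4 below, with a median of 0.07. Sptan1 and Sptbn1, the spectrin pair of non-erythroid cells, were at 0.07 ± 0.16 and -0.18 ± 0.17, and Actn1 at -0.37 ± 0.23. Actn2, the Z-disc alpha-actinin to which titin is anchored in muscle, had 2, 0 and 0 counts with DMSO and 23, 22, 23 and 13 counts with Pracinostat, the opposite order to Ttn.

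Of a list of 54 other giant genes 52 were tested, of which 41 were above 0 and 11 below, with a median of 0.15 (0.13 on library totals). Most of the 52 are also among the 98 long genes above, so this is not a second, separate set. That holds for every gene under the unadjusted p given next. By edgeR's adjusted p 0 passed, and at an unadjusted p under 0.05 there were 5 higher (9.62%) and 1 lower (1.92%), against 2.81% and 1.37% of all genes tested. Lrp1, the endocytic receptor and the most abundant of them, was at 5913 ± 800.9 CPM (SD, n = 3) in the DMSO group, against 5999.8 ± 634.3 CPM (SD, n = 4) in the Pracinostat group (0.02 ± 0.15). Ahnak, a giant scaffold protein, was at -0.44 ± 0.43. Its level was 622.6 CPM in Pracinostat replicate 3, against 1699.8 to 2392 CPM in the other Pracinostat libraries and 2031 to 2801 CPM with DMSO. Vps13a, a lipid transfer protein of membrane contacts, was at 42.1, 35.2 and 45.0 CPM with DMSO and 55.4, 62.3, 69.4 and 61.5 CPM with Pracinostat, the groups not overlapping (0.61 ± 0.20).

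**Figure D4:**
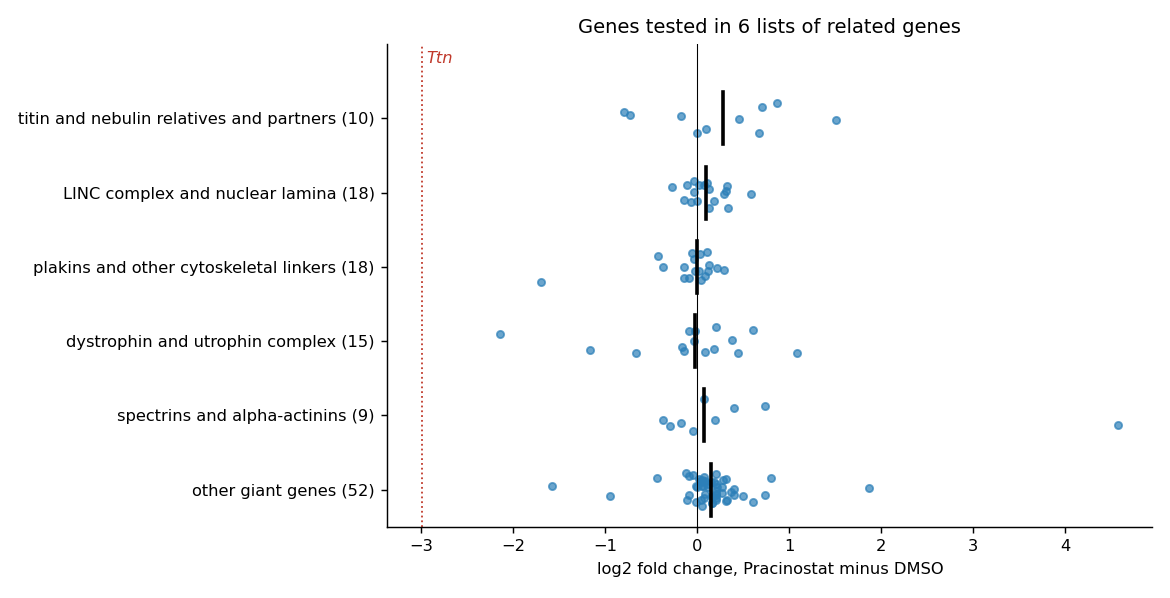
Log2 fold change, Pracinostat minus DMSO, of the genes tested in 6 lists of related genes (number tested in brackets), each point being 1 gene and each black bar the list's median. The medians lie between -0.02 and 0.28, and no listed gene reaches the dotted line at the value of Ttn, -2.99.

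The level of Ttn over the 7 libraries was compared with that of 10034 named genes whose mean log2 CPM was 2 or more. The 5 with the highest Pearson r of log2 CPM were the mitochondrial cristae gene Chchd3 (0.991), the mitochondrial ribosomal gene Mrpl11 (0.968), Dhdh (0.965), Pigq of the GPI-anchor pathway (0.961) and Cln8 (0.955). They have 227, 192, 333, 641 and 288 residues. Chchd3 was at 62.4, 71.0 and 64.5 CPM with DMSO and at 42.3, 41.3, 43.8 and 30.6 CPM with Pracinostat, with DMSO replicate 2 highest and Pracinostat replicate 4 lowest, as for Ttn. All 5 had groups that did not overlap, which the choice by likeness to Ttn favours, and their log2 fold changes lay between -0.74 (Chchd3) and -0.25 (Cln8). Of the other 6 listed genes, Utrn had the highest r with Ttn, 0.766, followed by Syne2 (0.269) and Syne1 (0.163), while Dst (-0.340), Macf1 (-0.476) and Neb (-0.478) ran the other way. These are descriptions over 7 libraries that share their scaling.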

How the data were processed

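RNA-seq of 7 libraries was analysed. Each deposited value is an expected count for 1 gene symbol, stored as a whole number and not normalized. Per the submitters' processing notes, STAR, RSEM, DESeq2, Trim Galore, FastQC and MultiQC were used, without versions or roles, on the mouse build GRCm39. Neither the annotation nor the strand setting is given in the sources at hand. Libraries were stranded total RNA from low input, per the labels' protocols.

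Groups were compared with edgeR 4.0.16 (R 4.3.3; TMM, filterByExpr minimum count 10, robust quasi-likelihood, two-sided, Benjamini-Hochberg over 15822 genes, threshold 0.05). Log2 CPM used a prior count of 2. The edgeR fit was tested on simulated data. Coding lengths come from GENCODE M21 (GRCm38), used in place of a protein table that was planned. It matched 91.7% of genes tested. Being of another build, it gave no coordinates. No library pair looked like a duplicate (lowest chi-square per degree of freedom, 32.3).

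The members and lists were chosen with earlier results of these data known. Named were the 7 genes, the 2 with the smallest p and the 2 most abundant genes of each list, the 3 lowest and 3 highest long genes, and the 5 genes most like Ttn. Others named (Lama2, Dmd, Ckm, Cd79b, Xirp1, Palld, Col1a1, Fn1 and the other muscle markers) were chosen after their values were seen. Alternatives covered scaling, filter, test (DESeq2 1.42.0, limma 3.58.1), left-out libraries, replicate block and length cut.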

Additional observations from a re-analysis of the deposited data

Results flagged for a closer look

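In the 4 Pracinostat libraries 19 values were screened for a library whose gap to its nearest neighbour exceeds Dixon's 95% limit, and 4 were found. That limit passes about 1 in 20 for normally distributed values. The 19 share the same 4 libraries and some are sums of few counts, so no excess is read from the 4. None concerned the 7 genes. Macrophage and microglia markers were highest in Pracinostat replicate 3, with a summed level of 13032.5 CPM against 9451 to 9945 CPM in the others. That library had the lowest Syne1 and the highest Macf1 and Dst. Pracinostat replicate 1 was the highest for smooth muscle and pericyte markers (114.2 CPM, others up to 29.7 CPM, DMSO 28.1 to 80.5 CPM) and for oligodendrocyte markers (1046.5 CPM, others 211.5 to 351.3 CPM, DMSO 189.5 to 361.6 CPM). It also had 0.750 CPM of T and natural killer cell markers (others 0 to 0.0661 CPM, DMSO 0 to 1.49 CPM). Their part in the levels of the 7 genes was not tested. Ttn in that library was at 2.66 CPM, beside 2.68 CPM in Pracinostat replicate 2.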

How the results depend on the processing

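The log2 fold change of Ttn stayed between -3.24 and -2.63 in 16 alternatives. In 14 it did not pass. It passed in edgeR without a low-count filter (-3.0, adjusted p = 0.000191) and with DESeq2 (-3.02, adjusted p = 0.00106). Over the fits without 1 library its edgeR adjusted p ran from 0.255 to 0.9999. Ttn was chosen for its fall in these same libraries. These p-values therefore show only how a call depends on the processing and are no support for the fall. The 0 genes called became 63 without a filter, 27 with DESeq2, 4 with the replicate block and 0 to 3 without 1 library, the 3 without DMSO replicate 3. Syne1 (-0.30 to 0.21 over the fits without 1 library) turned positive without Pracinostat replicate 3 (0.21) and reached 0.00 without DMSO replicate 3. Syne2 (-0.17 to 0.10) turned positive without DMSO replicate 2 (0.10) and without replicate 1 (0.02) or 4 (0.01) of Pracinostat, without both collagen-rich libraries, DMSO replicate 2 and Pracinostat replicate 1 (0.16), and in the block (0.01). Macf1, Dst, Utrn and Neb kept their sign in every alternative run (15 for Neb, 16 for the others), Neb between 1.06 and 2.54. The median of the longest genes ran from 0.01 to 0.23 in 20 alternatives, of which the cut by gene span (200 kb, 0.01) was added after the data were seen. That cut takes another set, 604 genes with the 7 left out, of which 297 were below 0 and 307 above. Of the 604, 23 had non-overlapping groups with Pracinostat lower and 13 higher, against 410 and 555 of all 15822 genes tested. At edgeR's unadjusted p under 0.05, 2.15% of the 604 were lower and 2.815% higher, against 1.37% and 2.81% of all genes tested. The labels give no sign that equal replicate numbers mean pairs. Deviations of libraries with the same number correlated at 0.0445, -0.0352 and 0.0728. DMSO replicates 1 and 3 correlated best with the Pracinostat library of their own number, and DMSO replicate 2 with Pracinostat replicate 4 (0.0511). The block, which also leaves out Pracinostat replicate 4, gave Ttn -2.63 without a call; without that library and with no block it was -2.71, also without a call, and 0 genes were called. The 2 changes were not separated further. At low counts, as in Neb and Pracinostat replicate 4 for Ttn, depth limits precision.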
